A study of Mus musculus with 6 samples.

Results

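CTCF intervals that were broad in quiescent muscle stem cells and had no counterpart near them in freshly isolated cells are described here. The study profiled CTCF by ChIP-seq, which sequences the DNA recovered with an antibody, in Pax7-nGFP mice of the C57BL/6 strain at postnatal day 38. Quiescent muscle stem cells (QSC) and freshly isolated muscle stem cells (FISC) had 2 CTCF libraries and 1 input library each, and all 6 samples shared strain, age and reporter genotype. Each state is represented by 1 deposited list of peak intervals. The sources used here do not give how the quiescent state was kept during isolation, how many mice gave a library, or whether mice were pooled. The lists hold positions only, so the labelled cell type could not be checked against marker genes.

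CTCF recognises an extended DNA motif through its array of zinc fingers and, together with the cohesin ring, holds the bases of chromatin loops and the borders of topologically associating domains. Much of its binding is shared between cell types, and a smaller part differs with DNA methylation and chromatin state. Muscle stem cells, also called satellite cells, express the transcription factor Pax7 and lie quiescent beside the muscle fibre, and their removal from muscle is known to start activation. The comparison asks which broad sites of the QSC list had no nearby interval in the FISC list. The width of an interval is the only value per peak that the lists allow, and it is no direct measure of binding strength.

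The intervals were chosen by 2 readouts of the lists themselves, their width in QSC and the absence of a FISC interval nearby. An autosomal QSC interval was taken when it was 377 bp or wider, the 75th percentile of QSC widths, and when no FISC interval lay within 10 kb, edge to edge. This left 1324 intervals, called wide quiescent-only intervals below, of 19403 in the QSC list, which stands beside 17520 in the FISC list. The 19 autosomes held 18669 QSC intervals, of which 4793 were wide. Wide quiescent-only intervals made up 27.6% of the wide intervals (95% Wilson interval 26.4 to 28.9). Another 3155 wide intervals (65.8%, 64.5 to 67.2) overlapped a FISC interval by at least 1 bp and serve as the comparison, and 314 (6.55%) had a FISC interval within 10 kb without overlap. Over autosomal QSC intervals of any width, 50.6% had no FISC interval within 10 kb. As the rule used that contrast, these shares are a description and carry no test.

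With 1 list per state there is no replicate error, and no value below was tested. Intervals given with shares (Wilson) and with medians (from order statistics) are 95% intervals that cover counting error only, and neighbouring peaks are not independent. Read depth is unknown because the lists hold no counts, and a site missing from the FISC list may still have been occupied below the calling limit. The number also depended on the narrower FISC peaks. With FISC intervals below their own median width of 372 bp set aside, 2099 wide QSC intervals, or 43.8%, had no FISC interval within 10 kb.

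The wider a QSC interval, the less often it stood far from every FISC interval. In QSC intervals from 245 to under 260 bp, 69.0% (67.2 to 70.7) had no FISC interval within 10 kb. The share was 41.9% (39.5 to 44.4) just under the minimum width, from 350 to 376 bp, and 38.4% (35.4 to 41.4) just above it, from 377 to under 400 bp. It was 34.1% from 400 to under 450 bp, 25.3% from 450 to under 500 bp and 18.9% (16.5 to 21.7) from 500 to under 600 bp. At 600 bp or more it was 7.54% (5.60 to 10.1), or 41 of 544 intervals, while 485 overlapped a FISC interval. The plot of classes by width shows an even decline with no step at the minimum width, so that minimum marks no natural group.

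**Figure D1:**
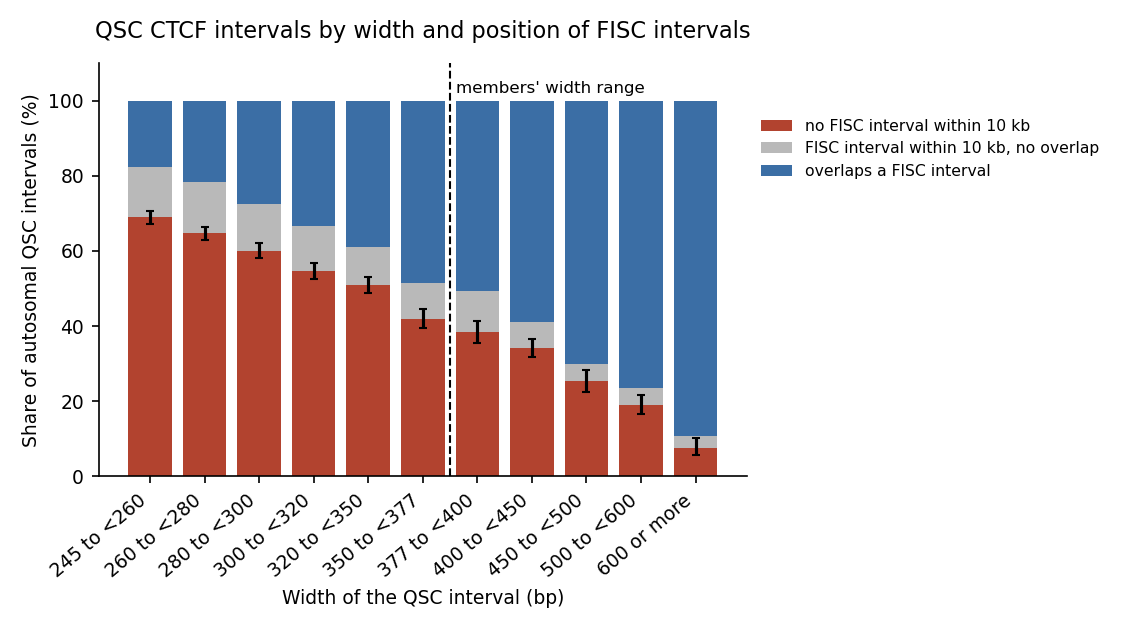
Share of autosomal QSC intervals in each width class (horizontal axis, bp) that had no FISC interval within 10 kb (red, with 95% Wilson bars), a FISC interval within 10 kb but no overlap (grey), or an overlap (blue). The red share falls from 69.0% in the narrowest class to 7.54% at 600 bp or more, and the dashed line marks the 377 bp minimum.

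Most wide quiescent-only intervals lay not far above the minimum. Their median width was 422 bp (418 to 425), the middle 50% ran from 396 to 468.5 bp, and 206 reached 500 bp. The overlapping wide intervals had a median of 463 bp (458 to 466) and a middle range from 414 to 545 bp. The widest overlapping intervals measured 5811, 1449 and 1225 bp, while the widest quiescent-only interval measured 859 bp. At the lower edge, 24 intervals were exactly 377 bp wide, and 11 intervals far from FISC were excluded for being 1 bp narrower. Examples at 377 bp lay on chromosome 1 at 21671786 to 21672162, 72543548 to 72543924 and 91377346 to 91377722. Those at 376 bp lay on chromosome 1 at 74592236 to 74592611 and 107908808 to 107909183 and on chromosome 11 at 90400348 to 90400723. All coordinates are mm9 and count from 1.

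The distance from a wide quiescent-only interval to the nearest FISC interval had a median of 73.5 kb (66.9 to 81.8) and ran from 10.1 to 2167 kb. In 213 of the 1324 (16.1%) a FISC interval lay between 10 and 20 kb away, so the nearest part of the set depends on the chosen distance. At 50 kb, 799 (60.3%, 57.7 to 62.9) still had no FISC interval, at 100 kb 542 (40.9%), at 200 kb 339 (25.6%), and at 1000 kb 47 (3.55%, 2.68 to 4.69). Of all autosomal QSC intervals, 32.5% had no FISC interval within 50 kb and 23.1% none within 100 kb. For the narrower QSC intervals that were also more than 10 kb from FISC, the shares were 64.9% and 46.5%, slightly higher than in the wide set. Just past the limit, intervals on chromosome 7 at 150882092 to 150882486, chromosome 11 at 54911104 to 54911490 and chromosome 2 at 73388891 to 73389409 had a FISC interval 10083, 10219 and 10255 bp away. Just within it, wide intervals on chromosome 16 at 17787275 to 17787653 and 5184941 to 5185321 and on chromosome 6 at 143178045 to 143178454 had one 9986, 9849 and 9752 bp away.

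Median width showed no steady change over classes of that distance. The median width was 427 bp (417 to 440) for wide quiescent-only intervals with a FISC interval at 10 to 20 kb and 424.5 bp (416 to 432) at 20 to 50 kb. It was 416 bp (410 to 425) at 50 to 100 kb, 421 bp (412 to 430) at 100 to 200 kb and 422 bp (413 to 429) at 200 to 500 kb. Beyond 500 kb, in 152 intervals, it was 421 bp (411 to 429). The intervals around these medians overlapped one another. Split by width instead, the median distance to FISC was 70.2 kb (59.7 to 81.0) from 377 to under 400 bp. It was 85.3 kb from 400 to under 450 bp, 63.9 kb from 450 to under 500 bp and 66.8 kb from 500 to under 600 bp. The 41 intervals of 600 bp or more had the lowest median, 49.6 kb (24.6 to 82.3), with a wide interval around it.

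The 10 widest lay in surroundings of very different density. The widest, 859 bp on chromosome 19 at 5601730 to 5602588, stood among 21 other QSC and 26 FISC intervals within 500 kb, midpoint to midpoint. Its nearest FISC interval was 32.5 kb away and, at 1848 bp, was itself broad, and the nearest QSC interval overlapped FISC. On chromosome 4, the 807 bp interval at 149328565 to 149329371 had 23 QSC and 31 FISC intervals within 500 kb, the nearest of them 3.40 kb and 24.6 kb away. On chromosome 2, the 806 bp interval at 25563731 to 25564536 had 25 and 21, with a second QSC interval of 355 bp only 1291 bp away and the nearest FISC interval at 13.2 kb. All 3 thus lacked a FISC partner inside a region in which FISC intervals were listed often.

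Others among the 10 widest lay in long stretches without FISC intervals. The 740 bp interval on chromosome 4 at 77272361 to 77273100 had no other QSC interval and 1 FISC interval within 500 kb, and lay in a FISC-free stretch of 3314 kb. The 720 bp interval on chromosome 8 at 44417676 to 44418395 had 2 QSC and 1 FISC intervals within 500 kb, and lay 388 kb from the nearest FISC interval, in a stretch of 1992 kb. The 787 bp interval on chromosome 2 at 80577890 to 80578676 had 7 QSC and 3 FISC intervals within 500 kb and lay 156 kb from FISC in a stretch of 1488 kb. The 3 stretches held 15, 10 and 5 QSC intervals.

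The remaining 4 had between 3 and 11 FISC intervals within 500 kb. On chromosome 7, the 823 bp interval at 46799749 to 46800571 had 4 QSC and 3 FISC intervals within 500 kb, and the 816 bp interval at 137850027 to 137850842 had 12 and 11. The 794 bp interval on chromosome 4 at 97484050 to 97484843 had 6 of each. The 732 bp interval on chromosome 5 at 20371547 to 20372278 had 10 and 8, with a narrow QSC interval of 274 bp only 2494 bp away. The plot of intervals around the 10 widest shows both lists for each.

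**Figure D2:**
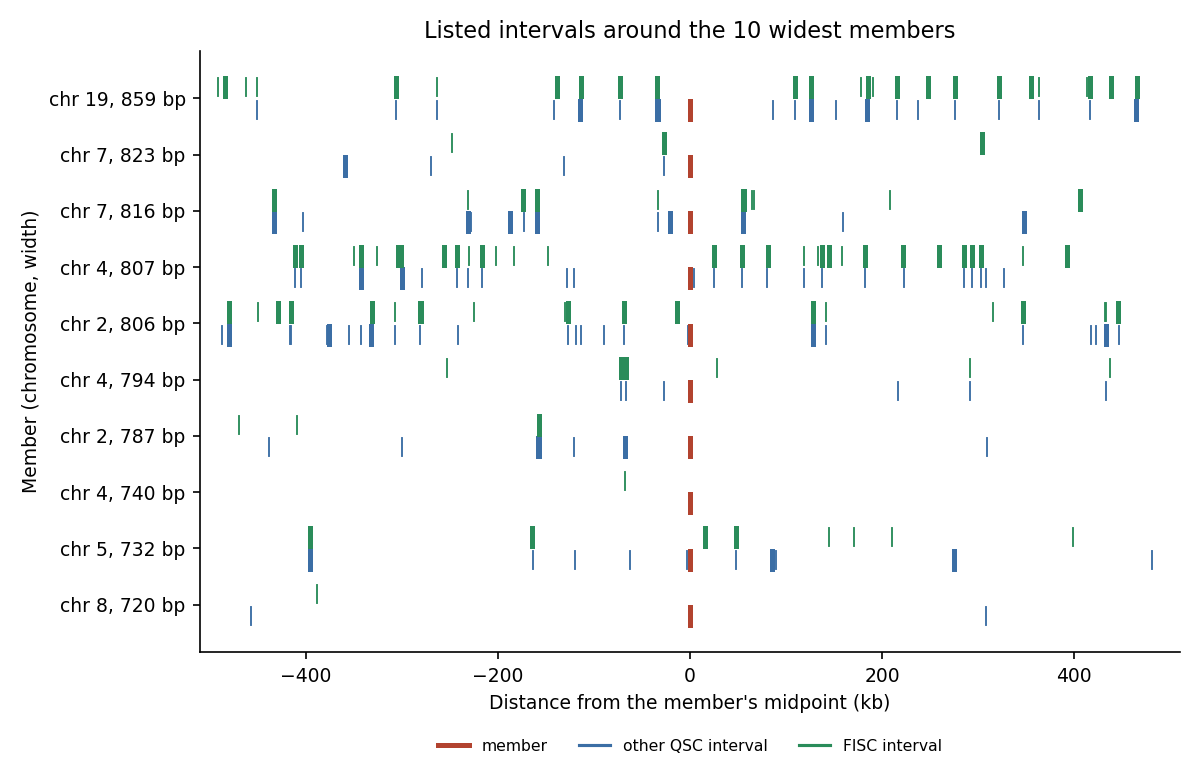
Positions of QSC (lower tick row, blue; the wide quiescent-only interval itself in red) and FISC (upper tick row, green) intervals by distance in kb from the midpoint of each of the 10 widest wide quiescent-only intervals; thick ticks are 377 bp or wider. The chromosome 4 interval of 740 bp has 1 FISC and no other QSC interval in view, and the chromosome 19 interval of 859 bp has 26 and 21.

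Neighbouring QSC sites were farther away than for the comparison set. The rule did not use this distance directly. It leaves almost no room within 10 kb for QSC intervals that overlap FISC, however, so the contrast is partly fixed by the rule. The nearest other QSC interval lay a median of 48.8 kb (44.7 to 52.1) from a wide quiescent-only interval and 21.5 kb (19.8 to 23.2) from a wide overlapping interval. Narrower QSC intervals far from FISC had a median of 52.4 kb (50.9 to 54.0). Another QSC interval lay within 10 kb of 8.99% (7.56 to 10.6) of the wide quiescent-only and 31.0% (29.4 to 32.6) of the wide overlapping intervals. Within 2 kb these shares were 2.27% and 9.76%. On this measure the wide quiescent-only intervals lay near the narrow ones far from FISC and well away from the wide ones that overlapped FISC.

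The nearest QSC neighbour was most often far from FISC too, in part by construction of the rule. Close to a wide quiescent-only interval a neighbour could hardly overlap FISC, and close to a wide overlapping interval none could be far from FISC. The neighbour had no FISC interval within 10 kb for 66.2% (63.6 to 68.7) of the wide quiescent-only intervals, against 27.9% (26.4 to 29.5) of the wide overlapping ones. The share was 68.1% (67.1 to 69.1) for narrow intervals far from FISC and 47.4% for all autosomal QSC intervals. The neighbour overlapped FISC for 27.04% of the wide quiescent-only and 53.0% of the wide overlapping intervals, beside 26.1% of the narrow far ones. It was itself wide for 20.8% (18.7 to 23.04), 29.7% (28.2 to 31.3) and 21.3% (20.4 to 22.2) of these 3 classes. The nearest FISC interval, in turn, was one that overlapped a QSC interval for 34.4% (31.9 to 37.0) of the wide quiescent-only and 32.7% (31.7 to 33.7) of the narrow far intervals. Its median width was 349.5 bp (344 to 356) and 348 bp. In each of these measures the wide quiescent-only intervals lay within 2 percentage points or 2 bp of narrow intervals far from FISC.

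Beyond the 10 kb that the rule fixes, both lists were about as dense around wide quiescent-only intervals as over the autosomes at large. At 10 to 50 kb from their midpoints, there were 8.84 QSC and 8.60 FISC intervals per Mb, where the autosomal means were 7.75 and 7.10. At 100 to 250 kb the densities were 8.55 and 8.25, and at 500 to 1000 kb 7.94 and 7.37. The ratio of FISC to QSC intervals was 0.972 at 10 to 50 kb and 0.928 at 500 to 1000 kb, beside 0.917 over the autosomes. Taken over all 1324 intervals, FISC intervals just outside the 10 kb were thus not scarcer than the autosomal mean per Mb. That baseline counts all sequence between the listed ends, with or without peaks. Against QSC intervals in general they were scarcer: the median FISC number within 500 kb was 6, beside 10 for all autosomal QSC intervals.

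The comparison set lay in denser regions of both lists. Around wide overlapping intervals there were 15.0 QSC and 17.4 FISC intervals per Mb at 10 to 50 kb, a ratio of 1.16, and 11.2 and 12.4 at 500 to 1000 kb. These intervals were selected for a FISC interval, which favours places where FISC intervals are many. Around narrow QSC intervals far from FISC the values at 10 to 50 kb were 8.08 and 7.57. A neighbour was counted once for each interval whose shell it fell in.

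**Figure D3:**
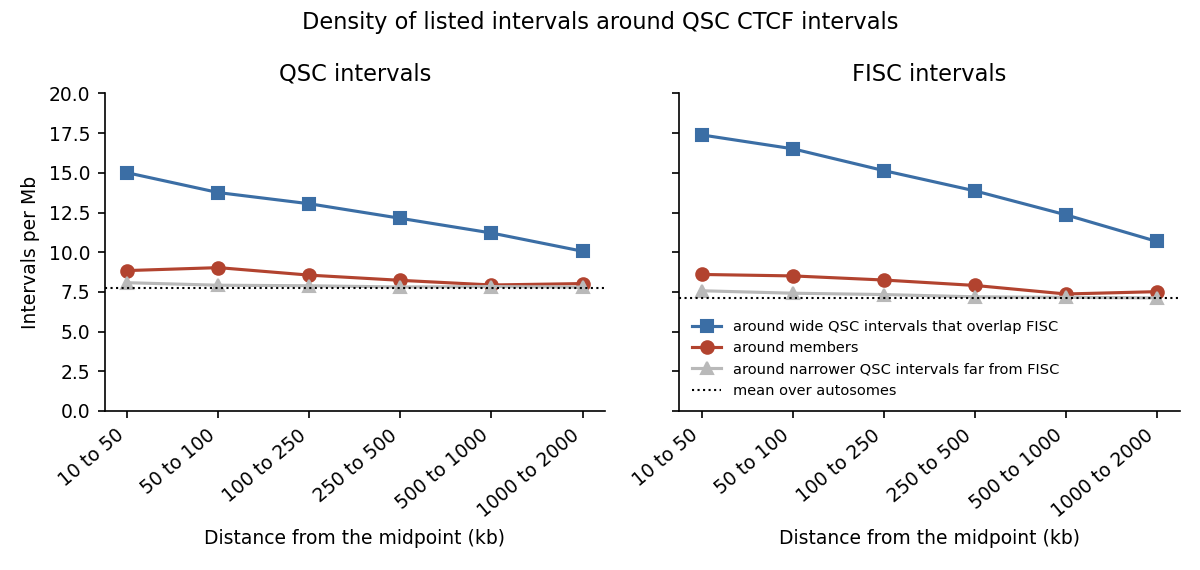
Number of QSC (left) and FISC (right) intervals per Mb by distance in kb from the midpoints of wide quiescent-only intervals (red), wide QSC intervals that overlap FISC (blue) and narrower QSC intervals far from FISC (grey), with the autosomal mean dotted. Red lies just above the dotted lines at 8.84 and 8.60 per Mb nearest the midpoint, and blue starts at 15.0 and 17.4.

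The mean density around wide quiescent-only intervals joined regions of unlike kinds. A wide quiescent-only interval had a median of 7 other QSC (7 to 8) and 6 FISC intervals (6 to 7) within 500 kb, against 12 and 14 for wide overlapping intervals. The medians were 9 and 10 for all autosomal QSC intervals and 7 and 5 for narrow ones far from FISC. The middle 50% of FISC numbers ran from 2 to 12 in the first set and from 9 to 21 in the second. No FISC midpoint lay within 500 kb of 152 wide quiescent-only intervals (11.5%, 9.87 to 13.3), of 12.1% of narrow intervals far from FISC and of 6.09% of all autosomal QSC intervals. At the other end, 105 of them (7.93%) had 20 or more.

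The share of wide QSC intervals that were quiescent-only fell with the number of FISC intervals around them, in part by construction of the rule. With 1 to 4 FISC intervals within 500 kb it was 66.6% (62.7 to 70.3), with 5 to 9 31.4%, with 10 to 19 19.1% and with 20 or more 8.99% (7.48 to 10.8). The rule did not use the number of other QSC intervals directly. Many of these overlap FISC, however, so a split by their number is not free of the rule. By that number the share fell from 59.0% (54.9 to 63.1) with 0 to 4 within 500 kb to 8.92% (6.93 to 11.4) with 20 or more. Among narrower QSC intervals, the share far from FISC went from 84.6% to 22.7% over the same classes. At every class of QSC number the wide intervals were less often far from FISC than the narrow ones, and their Wilson intervals did not overlap. Their width within the quiescent-only set did not follow density, with medians between 414 and 425 bp over the 5 classes of QSC number.

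**Figure D4:**
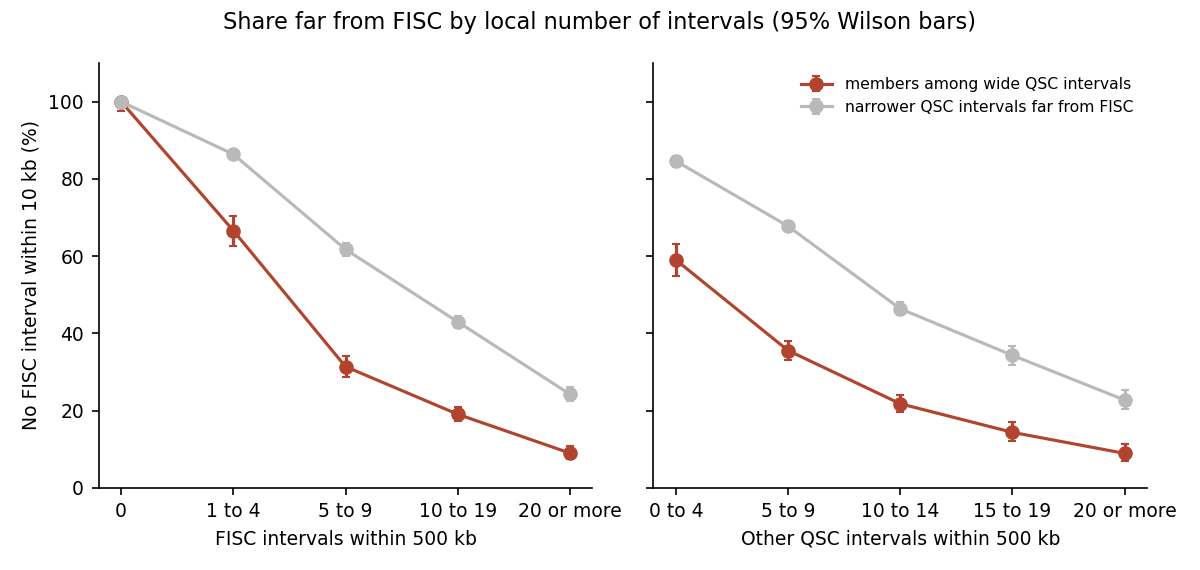
Share of QSC intervals with no FISC interval within 10 kb (vertical axis, %, with 95% Wilson bars) by the number of FISC (left) or other QSC (right) intervals within 500 kb, for wide intervals (red) and narrower ones (grey). Both shares fall with density, the red ones from 59.0% to 8.92% over QSC number, and the value of 100% at 0 FISC intervals is fixed by the rule.

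The FISC-free stretch, from the FISC interval before to the one after, had a median of 349.97 kb (323.9 to 390.1) around wide quiescent-only intervals. For wide overlapping intervals, with the overlapping FISC interval set aside, the distance between flanking FISC intervals had a median of 102 kb (97.7 to 107.8). Stretches of 500 kb or more held 524 wide quiescent-only intervals (39.6%, 37.0 to 42.2), and for the overlapping set the share was 8.72% (7.78 to 9.75). It was 44.5% (43.4 to 45.6) for narrow intervals far from FISC and 26.4% for all autosomal QSC intervals. The absence of a FISC interval within 10 kb lengthens the stretch by itself, so these values are partly fixed by the rule. Counting FISC-free stretches of any length, the 1324 intervals fell into 1108, apart from 7 beyond the first or last FISC interval of a chromosome. In 949 stretches there was 1 of them, in 159 there were 2 or more, and in 31 there were 3 or more. In 328 stretches a wide quiescent-only interval was the only QSC interval.

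The richest stretches lay on chromosomes 4 and 12. Between 89199411 and 92736508 of chromosome 4, a FISC-free stretch of 3537 kb held 21 QSC intervals, 6 of them wide. Between 66274337 and 69959850 of chromosome 12, 3686 kb without FISC held 19 QSC intervals, again 6 of them wide. The 577 bp interval at 68150692 to 68151268 and the 425 bp interval at 68209023 to 68209447 in that stretch lay 1809 and 1750 kb from the nearest FISC interval. Stretches with 5 wide quiescent-only intervals lay on chromosome 10 from 53583670 to 55699904, on chromosome 18 from 17947588 to 19743291, on chromosome 4 from 70944572 to 74209528 and on chromosome 6 from 110496611 to 112140590. Each of these stretches held from 8 to 21 QSC intervals. Their wide QSC intervals count as quiescent-only through the rule, since the stretches hold no FISC interval.

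The interval farthest from FISC, 2167 kb away, was 458 bp wide at 111592758 to 111593215 of chromosome 1. Its stretch of 4382 kb held 21 QSC intervals, so some QSC calls lay in a region that the FISC list left empty. Next came a 381 bp interval on chromosome 6 at 19666633 to 19667013, at 1882 kb, then the chromosome 12 pair, then a 403 bp interval on chromosome 6 at 80212730 to 80213132, at 1713 kb. The 5 had from 3 to 6 other QSC intervals within 500 kb and no FISC interval. The median over all autosomal QSC intervals was 9 other QSC intervals, so these places were poor in QSC intervals too. The longest stretches with a wide quiescent-only interval, both on chromosome 7, held 4 QSC intervals in 7327 kb and 11 in 6207 kb.

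Isolation in the quiescent list itself was rare: 5 of the 1324 had no other QSC interval within 500 kb, edge to edge. The most isolated, 488 bp on chromosome 6 at 13215154 to 13215641, lay 1016 kb from the next QSC interval and 15.3 kb from a FISC interval. Others lay on chromosome 11 at 30604348 to 30604750, 786 kb from the next, on chromosome 16 at 71862326 to 71862710, 578 kb, and on chromosome 12 at 28283868 to 28284389, 575 kb. The last was the 740 bp interval of chromosome 4, 543 kb from the next.

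Joined where at most 100 kb separated neighbours, 146 wide quiescent-only intervals (11.0%) formed 71 chains, 67 of 2 and 4 of 3, and 1178 stood single. That share depends on their mean density of 0.549 per Mb. Chains were not counted for the other classes, so the share is a description only. In 47 of the 71 chains neither a QSC nor a FISC interval lay between the chain's ends other than its own intervals. The tightest chain of 3 spanned 21.2 kb of chromosome 3, from 93619561 to 93640752, with widths from 396 to 534 bp and gaps of 3773 and 15970 bp. The other chains of 3 lay on chromosome 8 from 127572237 to 127680144, on chromosome 19 from 54020105 to 54139569 and on chromosome 7 from 75272450 to 75400297. The closest pairs lay on chromosome 3 from 68808333 to 68810307, with a gap of 1115 bp, and on chromosome 11 from 118915698 to 118918441, with a gap of 1889 bp.

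Over windows of 1 Mb, the number of wide quiescent-only intervals had a variance close to its mean. A ratio of 1 is the value for random scatter, and the departure from it was not tested. Of 2390 autosomal windows with an interval of either list, 1027 (43.0%) held at least 1 wide quiescent-only interval, 777 held 1, 209 held 2, 35 held 3 and 6 held 4. The variance of the number per window was 0.975 times its mean of 0.554. For wide overlapping intervals that ratio was 2.73, at a mean of 1.32 and with up to 13 in a window. For narrow intervals far from FISC, with a higher mean of 3.40 per window, it was 1.02. By this ratio the wide quiescent-only intervals were scattered much as narrow intervals far from FISC, whereas wide overlapping intervals were more bunched. The rule takes QSC intervals near FISC out of both far classes, so this contrast is partly fixed by it. The ratio also depends on the mean, which differed between the classes.

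The 6 windows with 4 began at 35 and 85 Mb of chromosome 9, 41 and 54 Mb of chromosome 10, 7 Mb of chromosome 13 and 54 Mb of chromosome 19. The chromosome 10 window at 54 Mb held 8 QSC and no FISC intervals, and the chromosome 13 window 15 and none. The chromosome 9 window at 85 Mb and the chromosome 19 window each held 6 QSC intervals and 1 FISC interval. By contrast, the chromosome 10 window at 41 Mb held 18 QSC intervals, 7 of which overlapped FISC, and 10 FISC intervals. The same number of wide quiescent-only intervals thus occurred with and without FISC intervals around.

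Every autosome held wide quiescent-only intervals, from 33 on chromosome 19 to 120 on chromosome 1. Their density per Mb ran only from 0.401 on chromosome 14 to 0.636 on chromosome 6, with a mean of 0.549. As a share of wide QSC intervals they ran more widely, highest on chromosome 12 with 39.8% (68 of 171, 32.7 to 47.2) and chromosome 1 with 36.9% (120 of 325, 31.9 to 42.3). The share was lowest on chromosome 11 with 16.8% (61 of 363, 13.3 to 21.0) and chromosome 7 with 21.9% (76 of 347, 17.9 to 26.5). Over QSC intervals of any width, the share far from FISC was likewise highest on chromosome 12, at 59.1%, and lowest on chromosome 11, at 36.5%, with 55.6% on chromosome 1 and 43.8% on chromosome 7. Chromosomes 11 and 12 held 61 and 68 wide quiescent-only intervals but 273 and 101 wide overlapping ones, so the 2 chromosomes differed more in the overlapping ones. The number of FISC intervals per QSC interval was 1.11 on chromosome 11 and 0.835 on chromosome 12, and the part of this in the shares was not tested.

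**Figure D5:**
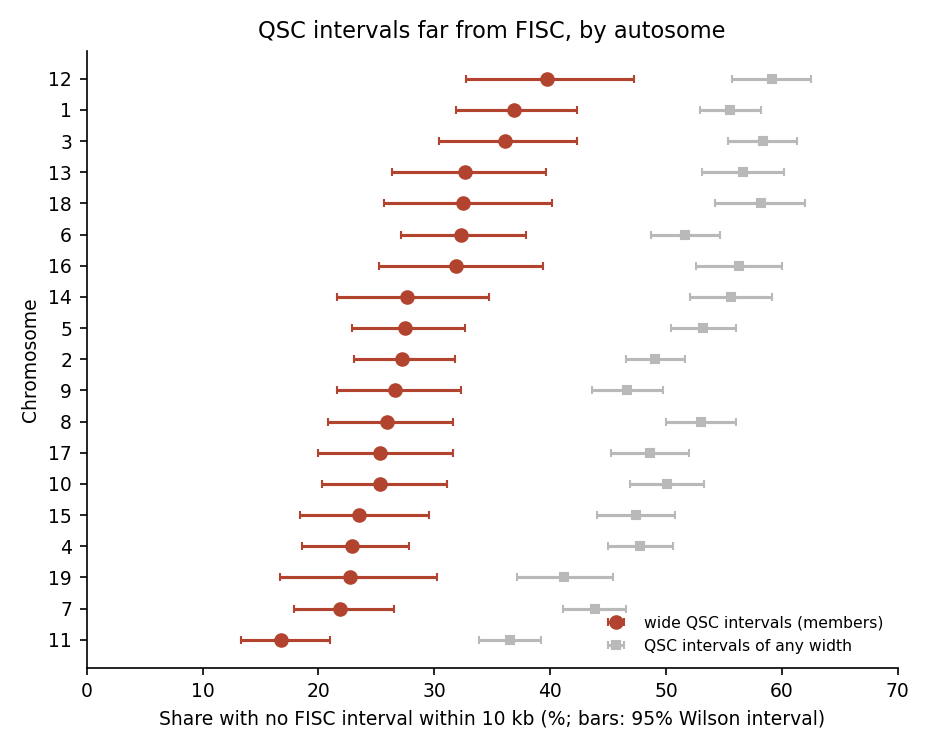
Share of QSC intervals with no FISC interval within 10 kb (horizontal axis, %, with 95% Wilson bars) on each autosome, for wide intervals (red) and intervals of any width (grey). Chromosome 12 is highest among wide intervals at 39.8% and chromosome 11 lowest at 16.8%.

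Along the chromosomes, wide quiescent-only intervals were spread over the whole length. Mouse chromosomes have the centromere at the end where coordinates begin. The span between the first and last listed positions was cut into 5 equal segments, which held, counted from that end, 18.3%, 18.9%, 20.7%, 21.5% and 20.7% of them. Of the wide overlapping intervals, 16.5% lay in the first segment and 29.1% (27.6 to 30.7) in the last. The last segment held 20.7% (18.6 to 23.0) of the wide quiescent-only and 20.6% (19.7 to 21.5) of the narrow intervals far from FISC. Of all autosomal QSC intervals, 18.1% lay in the first segment and 24.3% in the last, so both far classes were below that share in the last. The classes were chosen by the presence or absence of a FISC interval, so this contrast is not free of the rule.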

How the data were processed

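The authors deposited 1 list of CTCF peak intervals per state (chromosome, start, end), with no score column. Build mm9 and the tools HOMER, MACS2, Picard and Bowtie2 (version 2.2.3) are named in the submitters' processing notes, without their roles. Not given in the sources used here are the calling threshold, the use of inputs and the merging of libraries. A looser threshold or deeper reads can lengthen a list and widen its peaks, so both readouts of the rule may depend on them.

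The rule was applied with Python 3.11.15, numpy 2.4.6, pandas 2.3.3 and scipy 1.17.1. Bedtools 2.31.1 gave the same 1324 and 3155 intervals, and classes were checked on planted intervals. Members, measures and the rule for named regions (extremes of width, distance and density, and intervals beside each threshold) were chosen with earlier results of these data known. Alternatives changed distance, width, windows and chain gaps. Chromosome X and the mitochondrial chromosome were left out. As no genome of that build was used, sequences, motifs, base composition and gene annotation were not analysed.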

Additional observations from a re-analysis of the deposited data

Results flagged for a closer look

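The rule covers autosomes only, and chromosome X was left out of every comparison. Applied to X, the same width and distance gave 74 of 112 wide QSC intervals with no FISC interval within 10 kb, 66.1% (95% Wilson interval 56.9 to 74.2), above the highest autosomal share of 39.8% on chromosome 12. These 74 had a median width of 427 bp and lay a median of 191 kb from the nearest FISC interval. Another 30 wide intervals on X overlapped a FISC interval and 8 had one within 10 kb. The share far from FISC over X intervals of any width was not computed, so 66.1% cannot be read as particular to wide ones. Outside the autosomes the lists held 396 FISC and 734 QSC intervals, beside 17124 and 18669 on the autosomes. FISC intervals were thus fewer there for each QSC interval. X was examined because it lies outside the set described, and the difference from the autosomes was not tested.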

How the results depend on the processing

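Of 69 values recomputed, 31 stayed within their 95% interval or, for counts, within 1.5 times, and 38 did not. Against wide overlapping intervals, the order of shares, widths, distances and numbers within 500 kb kept its direction in every alternative run. For the distance to FISC this was fixed in advance, since the comparison intervals overlap FISC. For FISC numbers, long FISC-free stretches and the distance to the nearest other QSC interval it was partly fixed by the rule. The order of QSC numbers is not free of the rule either. The order of medians per window was kept in 5 of 8, with equal medians in the others. With a FISC distance of 2 kb the share of wide intervals was 31.6%, the median distances to FISC and QSC 56.8 and 41.6 kb, and the share in FISC-free stretches 35.7%. With 50 kb there were 799 intervals (16.7%), distances of 159 and 69.7 kb, medians of 6 QSC and 3 FISC intervals within 500 kb, 60.1% in long stretches and 33 chains. With 100 kb these were 542 (11.3%), 271 and 79.8 kb, 5 and 2, 78.6% and 21 chains. A larger distance keeps only intervals in sparser regions by construction. A minimum width of 350 bp gave 31.1%, a median width of 397 bp, 146 chains and a median of 1 per window. One of 450 bp gave 428 intervals (18.7%), a median width of 497 bp, 64.8 kb to FISC, 35.7% in long stretches and 11 chains. Chain gaps of 50 and 250 kb gave 33 and 147 chains, windows of 2 Mb a median of 1 against 0, radii of 100 kb and 1 Mb medians of 1 and 14 QSC intervals, and stretches of 1 Mb 25.3%. With FISC intervals at or above their median width there were 2099 intervals, or 43.8% of wide ones. Alternatives for motifs, base composition and annotation were not run. No paired analysis was possible because the deposited values do not separate the 2 libraries of a state, and so neither could be left out. Unknown depth limits every statement on absence from a list.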

Other observations

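The rule was also mirrored on the FISC list, with a share that depended on the width minimum. At the same 377 bp, 2559 of 8367 wide autosomal FISC intervals (30.6%, 95% Wilson interval 29.6 to 31.6) had no QSC interval within 10 kb, beside 27.6% (26.4 to 28.9) of wide QSC intervals. Of 4342 autosomal FISC intervals at or above the 75th percentile of FISC widths, 440.25 bp, 1090 (25.1%, 23.8 to 26.4) had none. These 1090 lay a median of 38.8 kb from the nearest QSC interval and had a median of 10 QSC and 11 other FISC intervals within 500 kb. Wide quiescent-only intervals lay 73.5 kb from FISC and had 7 QSC and 6 FISC intervals within 500 kb. The lists differ in width and calling depth is unknown, so the values stand side by side and the difference was not tested.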
